A study of Mus musculus with 12 samples.

Results

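Microglia sorted from the forebrain of mice labelled as knockouts of the lysosomal gene Sgsh (SgshKO) were compared with microglia of wild-type (WT) mice by ATAC-seq, an assay of open chromatin that uses a transposase to add adapters where DNA is accessible. The members are the 91770 peaks of the microglia table, of 281974 peaks in the tables of all sorts, measured in 4 of the study's 12 libraries: 2 SgshKO and 2 WT. All 4 came from C57BL/6 mice at 4 months of age, and the cells were sorted as live, CD11b+, CX3CR1+ and low for CD45. Neither the kind of Sgsh allele nor the sex, the number of animals per library or whether the replicates came from separate animals is stated in the labels, so p-values measure only the spread between these libraries. Since the pool of cells is measured as a whole, a change in the number of open cells and a change in opening per cell cannot be told apart.

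Sgsh encodes N-sulfoglucosamine sulfohydrolase, one of the enzymes that take heparan sulfate apart in the lysosome. Its loss causes mucopolysaccharidosis type IIIA (Sanfilippo syndrome), in which heparan sulfate builds up in lysosomes of many cell types, microglia among them. The factors MITF, TFEB and TFE3, named in the study's design, bind E-boxes at genes of the lysosome and of autophagy. Microglia under lysosomal or lipid load are known for a disease-associated (DAM) program with raised Apoe, Fabp5 and Igf1 and lowered homeostatic genes such as Cx3cr1 and P2ry12.

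Library totals ran from 10771659 to 11804222 reads, and the share of reads inside peaks was 55.8% and 48.7% in the WT and 67.4% and 53.7% in the SgshKO libraries. The median peak held 27 to 39 reads. Start-site peaks of 12 microglia marker genes summed to 2740 to 3208 normalized tags in WT and 2597 to 3344 in SgshKO, and each of these genes had a peak. The summed levels of neuron, astrocyte, oligodendrocyte-lineage, border macrophage, monocyte and neutrophil and lymphocyte markers overlapped between the genotypes, at 122 to 753 normalized tags per list. The sums of endothelial and mural markers were lower in SgshKO (159 and 234 against 241 and 283). As a share of the tags in peaks, oligodendrocyte-lineage, monocyte and neutrophil and lymphocyte markers were also lower in SgshKO, without overlap. Of 40 peaks nearest lymphocyte markers 6 were higher (15%, against 5.05% of all peaks) and 0 lower; the 6 lay nearest Tcf7, Cd2 and Gata3, and without WT replicate 1 or 2, in turn, 1 and 2 of the 40 were called higher. The part of these markers in the results was not tested. No peak was nearest to Gad1, Gad2, Sox9, Sox10, Ly6c2 or Ly6g. One library stood apart at a small set of peaks: WT replicate 2 was 4-fold or more below the lowest of the other 3 libraries at 50 peaks where those had at least 20 normalized tags, against 1, 3 and 21 such peaks in WT replicate 1, SgshKO replicate 1 and SgshKO replicate 2. Of the 50 peaks, 28 were called. They included single peaks nearest Apoe, Apoc2, Slc2a5 and Mbd2, whose values are given below with and without that library.

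The promoters with the largest changes are shown first, because peaks at start sites were called higher more often than distal ones. Of the 8 largest increases and 8 largest decreases at start sites, 4 and 3 had a RefSeq promoter window under the peak, and the Sgsh promoter is added. Each sequence holds the 250 bases before the annotated start site in RefSeq's GRCm38.p6, 5′ to 3′ on the gene's strand. Capitals mark the GC box GGGCGG (or CCGCCC, its other strand) and the E-box core CACGTG. The Sgsh sequence lies at chr11:119355511-119355760 (minus strand), Fau at chr19:6057697-6057946 (plus strand), Ulk1 at chr5:110810082-110810331 (minus strand), Fam210b at chr2:172345327-172345576 (plus strand) and Oard1 at chr17:48409750-48409999 (plus strand). The sequences of promoters that fell lie at chr6:48840989-48841238 (minus strand) for Tmem176b, chrX:96713218-96713467 (plus strand) for Gpr165 and chr2:152398047-152398296 (minus strand) for Sox12.
Sgsh: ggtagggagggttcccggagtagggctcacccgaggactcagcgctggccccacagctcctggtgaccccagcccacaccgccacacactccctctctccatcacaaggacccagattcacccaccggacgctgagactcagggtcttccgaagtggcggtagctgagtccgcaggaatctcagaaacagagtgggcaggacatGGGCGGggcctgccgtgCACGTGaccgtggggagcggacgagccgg
Fau: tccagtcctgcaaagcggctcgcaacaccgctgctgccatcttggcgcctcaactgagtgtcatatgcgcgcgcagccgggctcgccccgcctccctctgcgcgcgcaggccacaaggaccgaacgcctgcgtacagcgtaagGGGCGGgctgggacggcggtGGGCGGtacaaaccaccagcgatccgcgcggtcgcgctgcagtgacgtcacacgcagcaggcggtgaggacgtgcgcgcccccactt
Ulk1: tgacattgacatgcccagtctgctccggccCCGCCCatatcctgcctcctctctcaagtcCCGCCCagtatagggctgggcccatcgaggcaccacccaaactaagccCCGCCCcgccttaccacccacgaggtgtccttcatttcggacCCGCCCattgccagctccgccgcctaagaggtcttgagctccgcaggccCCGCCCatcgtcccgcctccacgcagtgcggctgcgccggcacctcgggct
Fam210b: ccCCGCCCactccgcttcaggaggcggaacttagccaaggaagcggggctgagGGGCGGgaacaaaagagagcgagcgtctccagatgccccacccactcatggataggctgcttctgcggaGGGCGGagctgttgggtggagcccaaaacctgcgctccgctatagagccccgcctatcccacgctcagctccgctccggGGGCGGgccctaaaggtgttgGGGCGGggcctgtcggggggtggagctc
Oard1: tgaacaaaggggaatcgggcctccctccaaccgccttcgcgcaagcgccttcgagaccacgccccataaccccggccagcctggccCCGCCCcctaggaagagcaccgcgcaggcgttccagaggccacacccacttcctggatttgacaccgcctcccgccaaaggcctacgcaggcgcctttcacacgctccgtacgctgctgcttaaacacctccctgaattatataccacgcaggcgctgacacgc
Tmem176b: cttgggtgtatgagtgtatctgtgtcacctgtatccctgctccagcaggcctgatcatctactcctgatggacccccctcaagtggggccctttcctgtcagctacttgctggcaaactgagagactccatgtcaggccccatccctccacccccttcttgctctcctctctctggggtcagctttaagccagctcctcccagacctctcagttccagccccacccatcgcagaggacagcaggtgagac
Gpr165: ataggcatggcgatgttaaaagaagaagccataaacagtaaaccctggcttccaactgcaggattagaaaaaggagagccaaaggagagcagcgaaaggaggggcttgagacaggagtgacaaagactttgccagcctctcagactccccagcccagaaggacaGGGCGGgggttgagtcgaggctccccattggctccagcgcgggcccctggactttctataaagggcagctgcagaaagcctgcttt
Sox12: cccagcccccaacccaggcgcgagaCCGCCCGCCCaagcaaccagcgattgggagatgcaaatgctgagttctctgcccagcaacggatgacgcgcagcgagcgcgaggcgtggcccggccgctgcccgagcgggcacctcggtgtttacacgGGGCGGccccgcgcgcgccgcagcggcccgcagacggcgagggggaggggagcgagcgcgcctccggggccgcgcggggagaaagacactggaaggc
The 4 promoters that rose held 2, 5, 5 and 1 GC boxes in the order printed. Those that fell held 0, 1 and 3. The E-box core was found only in the Sgsh promoter among these 8.

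At 6765 peaks (7.37% of 91770) accessibility differed between genotypes at an adjusted p under 0.05 by limma. They divided unevenly by position. Among the 23806 peaks within 1000 bp of an annotated start site 2332 (9.8%) were called: 2046 (8.59%) were higher and 286 (1.2%) lower in SgshKO. Among the 67964 distal peaks 4433 (6.52%) were called: 2585 (3.8%) were higher and 1848 (2.72%) lower. Start-site peaks were therefore 25.9% of all peaks, 44.2% of those called higher and 13.4% of those called lower. The increases lay close to the start site itself: within 250 bp, 13.2% of 12900 peaks were higher and 0.86% lower, whereas from 250 to 1000 bp 3.10% of 10906 were higher. In every bin beyond 1 kb, 3.46% to 4.72% of peaks were higher and 1.95% to 3.57% lower. By annotation class, 11.7% of promoter peaks were higher and 1.02% lower, and exon peaks showed the opposite balance with 1.34% higher and 3.04% lower.

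**Figure D1:**
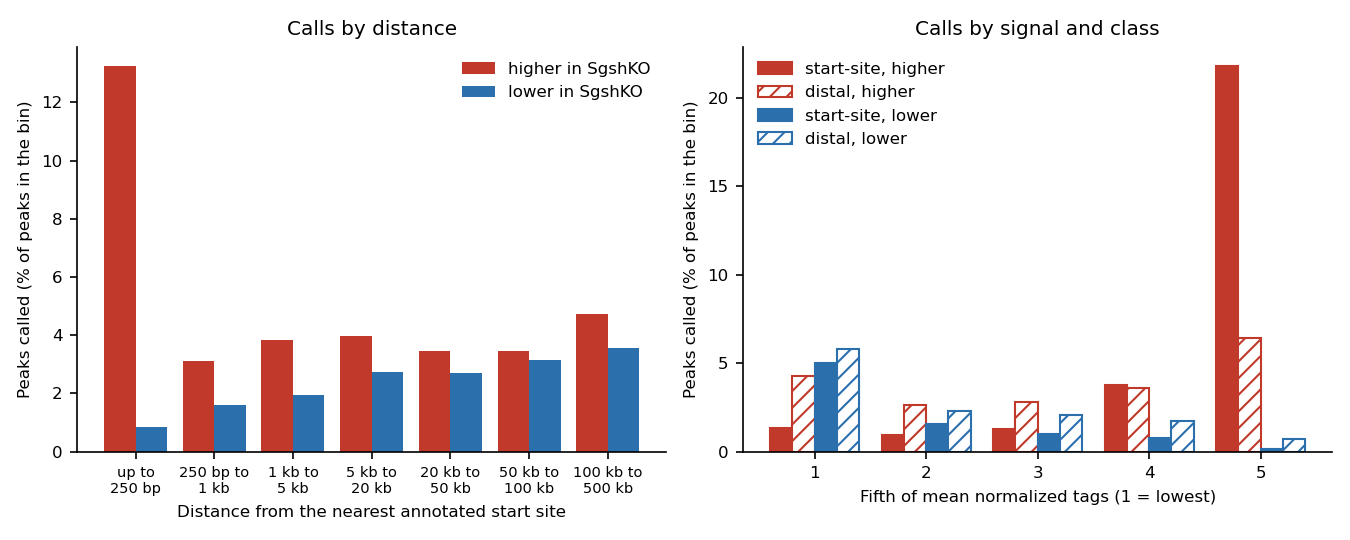
Left, percent of peaks called higher (red) or lower (blue) in SgshKO by distance from the nearest annotated start site; right, the same in 5 equal groups of peaks by mean normalized tags, for start-site (filled) and distal (hatched) peaks. The share called higher is 13.2% within 250 bp and under 5% in every other distance bin, and it is 21.8% for start-site peaks in the top signal group.

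Start-site peaks are also the strongest peaks, and signal moved with the calls. With peaks in 5 equal groups by mean normalized tags, in the top group 21.8% of 7869 start-site peaks and 6.42% of 10485 distal peaks were higher. In the lowest group, 1.31% of start-site and 4.26% of distal peaks were higher, and 4.996% and 5.82% were lower. The share of peak tags that fell in start-site peaks was 35.3% and 35.7% in the WT and 37.8% and 43.9% in the SgshKO libraries. The groups did not overlap, but with 2 libraries against 2 an exact two-sided permutation test cannot go below p = 0.333. By another measure the libraries overlapped: the median log2 level of start-site peaks exceeded that of distal peaks by 0.82 and 0.82 in the WT and by 0.76 and 1.03 in the SgshKO libraries. The median log2 change was 0.03 for start-site and -0.12 for distal peaks.

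The balance at start sites kept its direction in all 17 fits, while that at distal peaks did not. With each library scaled to its tags in peaks, which moved the median of all peaks from -0.08 to -0.28, start-site calls were 2228 higher and 1724 lower and distal calls 2875 higher and 7695 lower. Leaving out a library moved the counts most. When WT replicate 1 was left out, 510 start-site peaks were higher and 2 lower, and 617 distal peaks were higher and 30 lower. Without WT replicate 2 the counts were 249 and 3 at start sites and 292 and 13 at distal peaks. Without SgshKO replicate 1 they were 2951 and 1919 at start sites and 2956 and 11024 at distal peaks, and without SgshKO replicate 2 they were 3532 and 914, and 8276 and 3809. In these fits the lone library of a genotype is assumed to vary like the other pair.

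**Figure D2:**
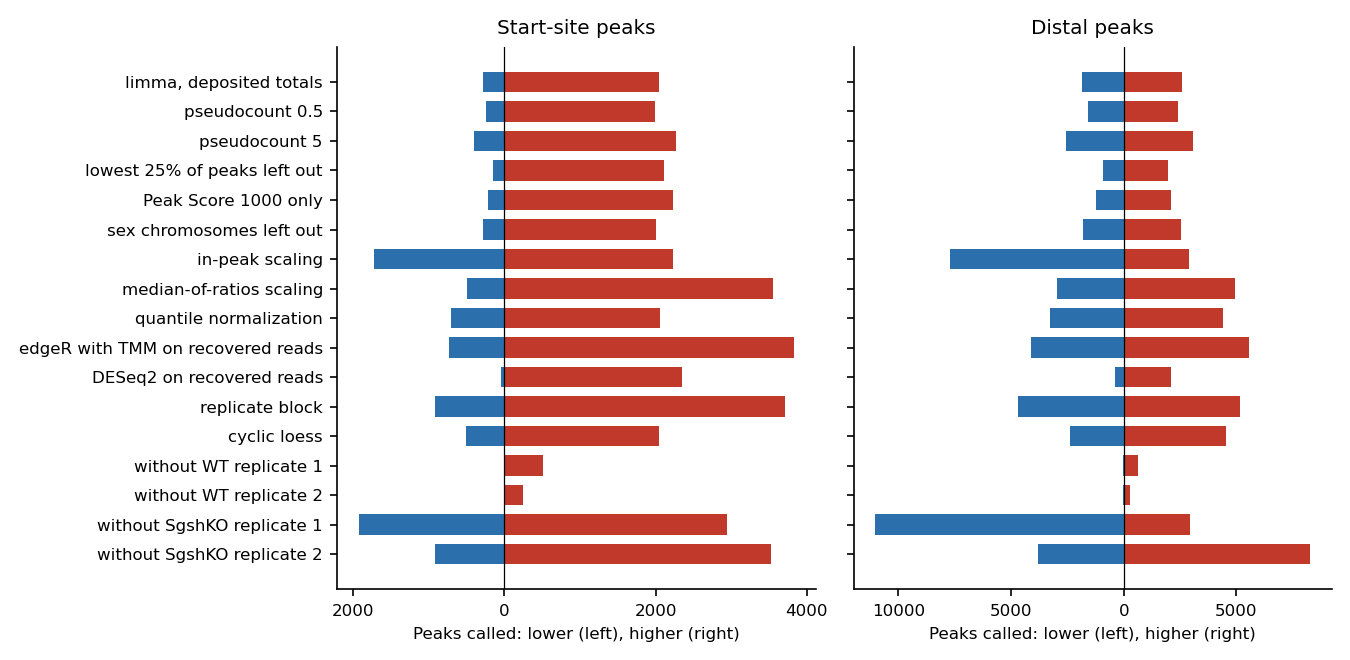
Number of start-site (left) and distal (right) peaks called lower (blue, to the left) and higher (red, to the right) in SgshKO under each of 17 fits. Red bars exceed blue ones at start sites in every fit; at distal peaks they do not with in-peak scaling or without SgshKO replicate 1.

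Genes were named among the stronger calls: those that had the same direction with deposited totals, in-peak scaling and quantile normalization, with no overlap between the libraries of the genotypes, and with an average signal no lower than the median peak's 30.3 normalized tags. Of all called peaks, 99.8% had such separated libraries. The stronger calls were 2728 peaks higher (2.97% of all) and 516 lower (0.562%). Separation of the libraries alone is common here: both SgshKO libraries were above both WT libraries at 23% of peaks and below them at 28.1%.

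The largest start-site increase was at Pknox1, a homeobox transcription factor, at -222 bp from its start site (chromosome 17, 31564435 to 31564668). It had 49.3 and 43.2 normalized tags in the WT and 314 and 645 in the SgshKO libraries, a log2 change of 3.26 ± 0.31 (SE, adjusted p = 7.85e-09 by limma). The 2 SgshKO libraries differ from each other there, but both lie far above WT. At Fau, which encodes a ubiquitin-like protein fused to a ribosomal protein, the peak at the promoter printed above (chromosome 19, 6057728 to 6057937) had 35.4 and 37.3 in WT and 277 and 353 in SgshKO (log2 change 3.07 ± 0.30). Ulk1 is the kinase that starts autophagy. Its promoter peak (chromosome 5, 110810157 to 110810391) went from 106 and 90.7 to 595 and 788 normalized tags (2.79 ± 0.27, adjusted p = 8.56e-09). The genotypes lay far apart there, and the SgshKO libraries differed from each other by much less.

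The other start-site peaks in this group were those of Gpc4, Zfp78, Fam210b, Zfp438 and Oard1. Gpc4, a glypican that carries heparan sulfate chains, went from 5.19 and 5.08 to 64.9 and 46.4. Fam210b, a mitochondrial protein, went from 97.7 and 64.4 to 516 and 774. Oard1, which removes ADP-ribose from proteins, went from 64.8 and 56.8 to 375 and 412. All 8 increases were still called without any 1 of the 4 libraries (adjusted p up to 0.000439), and all 8 peaks overlapped a peak of both the NeuN+ and the Olig2+ table.

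Decreases at start sites were smaller, and most of their calls were lost in fits with 1 WT library. All 78 stronger start-site decreases kept their direction in those fits, without WT replicate 1 or 2. The spread in those fits comes from the SgshKO pair, whose replicate difference had an SD of 0.60 (log2) over peaks, against 0.42 in WT. At Upk1b, a tetraspanin counted among homeostatic microglia genes (chromosome 16, 38800069 to 38800434), WT had 75.2 and 83.9 and SgshKO 25.1 and 13 normalized tags (log2 change -2.07 ± 0.38, adjusted p = 0.000476). Tmem176b, a membrane protein of antigen-presenting cells, went from 67.4 and 37.3 to 13 and 10.2 (-2.03 ± 0.42). Gpr165, a G protein-coupled receptor gene on the X chromosome, went from 213 and 182 to 82.2 and 35.3 (-1.85 ± 0.33). The genotypes did not overlap at any of the 8 peaks, a condition of the rule. Sema6d, Cacng2, Hmgn3, Sox12 and Plxdc2 made up the rest, with log2 changes from -1.91 to -1.72. With WT replicate 1 left out, 7 of the 8 calls were lost (all but Upk1b, adjusted p up to 0.377), and without WT replicate 2, 6 were lost (all but Tmem176b and Gpr165, up to 0.438). Without SgshKO replicate 1 the Sox12 call was lost (adjusted p = 0.0758).

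**Figure D3:**
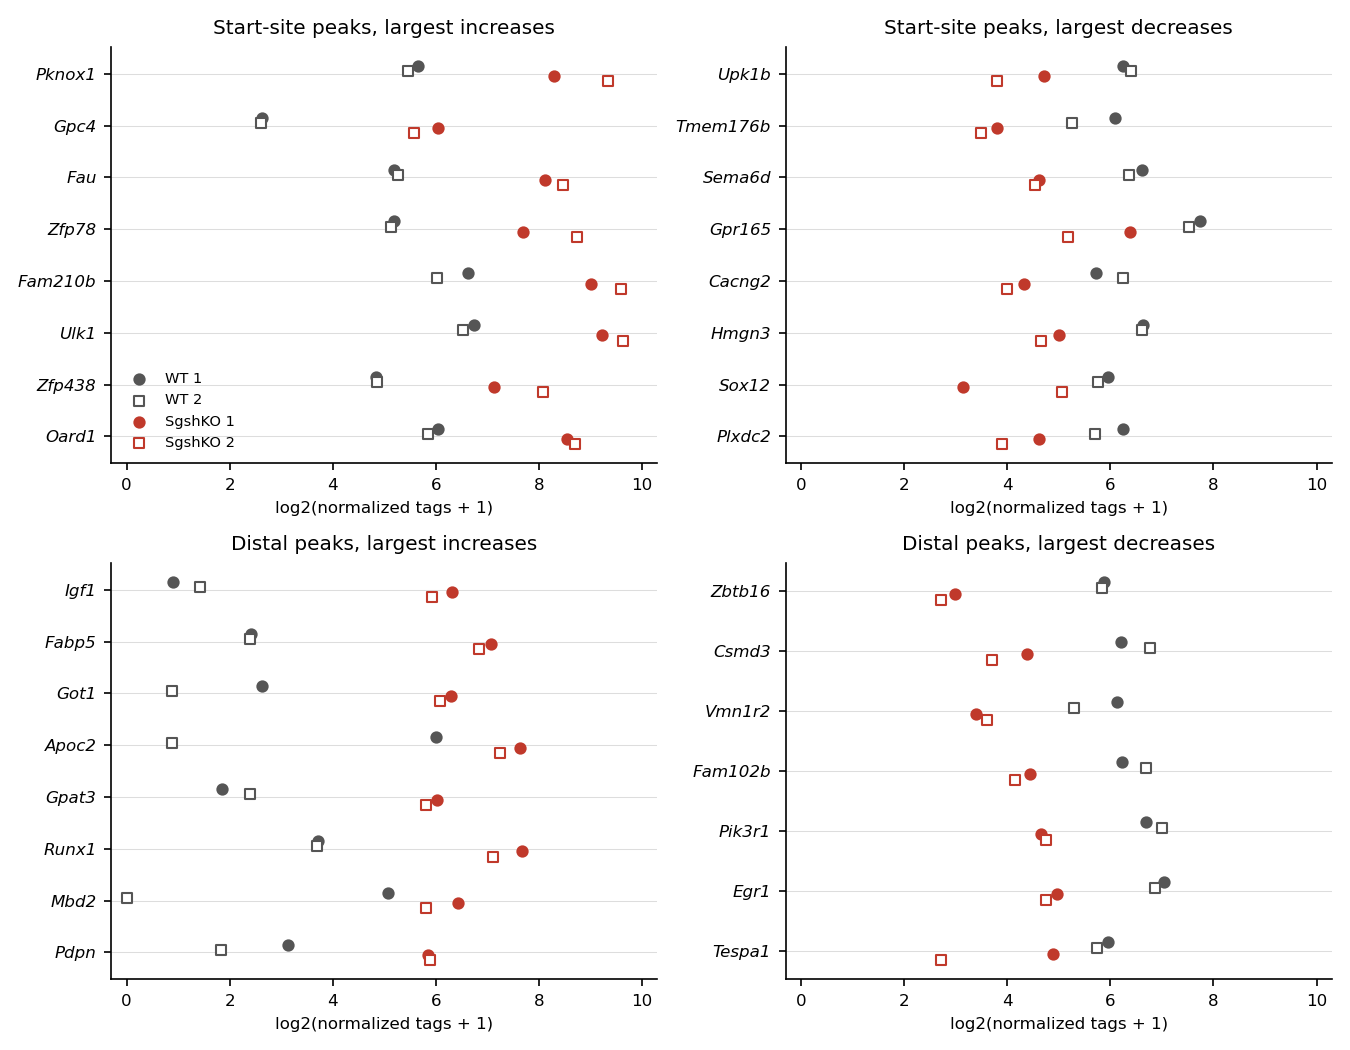
log2(normalized tags + 1) in each library at the 8 peaks with the largest increase and the 8 with the largest decrease among start-site (top) and distal (bottom) peaks, labelled by nearest gene (7 distal decreases are drawn); WT in grey, SgshKO in red, circles for replicate 1 and squares for replicate 2. The SgshKO points lie to the right of both WT points in the left panels and to the left in the right panels; WT replicate 2 lies far from WT replicate 1 at Apoc2 and Mbd2.

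Base composition moved with the start-site calls. Of the start-site peaks, 8995 overlapped a 300-base RefSeq promoter window by at least 100 bases. The median GC content of the window was 65% for the 1374 called higher, 61.7% for those not called and 58.7% for the 53 called lower. In 5 groups of like size by GC content, from lowest to highest, 6.11%, 12.3%, 18.7%, 23.2% and 16.5% of peaks were higher. The 2 SgshKO libraries differed along the same axis: the median of SgshKO replicate 1 minus 2 fell from 0.28 in the lowest to 0.04 in the highest group, while WT replicate 1 minus 2 went from 0.22 to 0.15. A fit restricted to these windows called 2462 higher and 233 lower. After a loess curve on GC content was subtracted from each library, a step chosen after seeing the data, which also moved their median change from 0.29 to -0.01, it called 1431 higher and 852 lower. Of the 1374 peaks called higher in the full table, 1277 were still higher after that correction. The part of base composition in the result was otherwise not tested.

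Several short motifs were searched on both strands of these windows. The GC box GGGCGG was present in 90.3% of windows called higher, 70.0% of all matched windows, 47.2% of those called lower and 35.7% of 32851 RefSeq promoters. Among windows in the middle GC range of the higher calls, the share was 93.4% for higher calls against 80.9% of all. The E-box core CACGTG of the MiT/TFE factors was present in 13.9% of higher calls, 10.8% of matched windows and 7.15% of all promoters (15.1% against 12.4% in the same GC range). For the longer TCACGTGA, which holds that core, the shares were 2.91%, 1.93% and 0.974%. The M-box TCATGTGA, also known to be bound by these factors, was present in 0.582% of higher calls, 0.667% of matched windows and 0.986% of all promoters. The AP-1 motif TGANTCA was present in 3.42% of higher calls, 4.56% of matched windows and 7.81% of all promoters, and the PU.1 motif GAGGAAGT in 2.04%, 3.54% and 3.20%. In the same GC range the shares of higher calls and of all windows were 3.43% and 3.65% for AP-1 and 2.14% and 2.99% for PU.1. The NRF1 motif was present in 16.3% of higher calls, 10.7% of matched windows and 4.6% of all promoters (16.6% against 12.6% in the same GC range). These are matches of letters and were given no test.

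The largest distal increases had log2 changes from 3.39 to 4.96. The peak nearest Igf1, which encodes insulin-like growth factor 1, lies at -161597 bp, upstream of its start site (chromosome 10, 87696514 to 87696822). It held 1 and 2 reads in the WT libraries, and 78.8 and 59.4 normalized tags in SgshKO against 0.86 and 1.69. The ratio was 54.2, and the exact 95% counting interval ran from 18.2 to 265. Fabp5, a fatty acid binding protein, had a peak 10053 bp from its start site at 4.32 and 4.24 in WT and 133 and 113 in SgshKO. A peak in intron 3 of 12 of Gpat3, an acyltransferase of triglyceride synthesis (chromosome 5, 100860743 to 100860943), went from 2.59 and 4.24 to 64.1 and 54.8 (log2 change 3.80 ± 0.46, adjusted p = 7.35e-07). At Runx1, a transcription factor of blood lineages, an intronic peak (chromosome 16, 92612548 to 92612785) went from 12.1 and 11.9 to 203 and 137 (3.69 ± 0.36, adjusted p = 1.31e-08). The 5 other called peaks nearest Runx1 went the other way, with log2 changes from -2.10 to -1.16, although their calls were lost without either WT library.

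Got1 (aspartate aminotransferase) and Pdpn (podoplanin) completed the distal increases that were still called with any 1 library left out. Pdpn went from 7.78 and 2.54 to 56.3 and 58.5 normalized tags. The remaining ones depended on WT replicate 2. At Apoc2, an apolipoprotein (chromosome 7, 19675905 to 19676117), the WT libraries had 63.1 and 0.85 normalized tags and the SgshKO libraries 197 and 151, and without WT replicate 2 the adjusted p was 0.232. At Mbd2, a methyl-CpG binding protein, WT had 32.8 and 0 against 84.8 and 54.8, and without that library the adjusted p was 0.708.

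Among distal decreases, Zbtb16, a zinc-finger repressor, had the largest, in intron 3 of 6 (57.9 and 55.9 in WT against 6.93 and 5.57 in SgshKO). It was still called with any 1 library left out (adjusted p up to 0.0101). Egr1, an immediate-early transcription factor, had a peak 6760 bp from its start site at 130 and 116 against 30.3 and 26.0 (log2 change -2.09 ± 0.34, adjusted p = 7.0e-05), which was likewise called in each of those fits (adjusted p up to 0.0387). At Pik3r1, the regulatory subunit of class I PI3-kinase (chromosome 13, 101753771 to 101754091), the values were 102 and 127 against 24.2 and 26.0 (-2.14 ± 0.34). Without WT replicate 2 this peak no longer passed (adjusted p = 0.0892), nor did those of Csmd3, Fam102b and Tespa1 (up to 0.151). Vmn1r2 and Tespa1 lost theirs without WT replicate 1 (0.252 and 0.129).

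Calls were not spread evenly over genes. Rftn1, which encodes the lipid raft protein raftlin, had 29 peaks as nearest gene, of which 20 were higher and 0 lower, with a median log2 change of 2.06 over all 29. Its 8 stronger peaks spanned chromosome 17, 50025194 to 50192736, and summed to 280.0 and 265 normalized tags in WT and 1019 and 916 in SgshKO. Glul, glutamine synthetase, had 15 of 48 peaks higher and 2 lower. The 13 stronger ones lay between 562 and 11695 bp from its start site (chromosome 1, 153900391 to 153911782) and summed to 552 and 599 in WT against 2517 and 1145 in SgshKO. The SgshKO libraries differ here by more than 2-fold, though both exceed WT. Cotl1, Gse1, Ywhaz and Cmip followed with 16 of 49, 14 of 55, 11 of 60 and 12 of 54 peaks higher and 0 lower. All of these shares exceed the 5.05% of all peaks called higher, but the genes were picked for their counts. Without WT replicate 1 or 2, in turn, Rftn1 had 11 and 8 higher peaks and Glul 3 and 3, while limma called 0 for Cotl1 in both fits (13 and 23 higher at an unadjusted p under 0.05) and between 0 and 3 for Gse1, Ywhaz and Cmip.

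On the other side, Pik3r1 had 29 of 72 peaks lower and 0 higher (median log2 change -1.04 over all 72, against 2.33% of all peaks called lower). Its 12 stronger peaks summed to 1501 and 1352 normalized tags in WT and 648 and 587 in SgshKO. Klf2, a transcription factor of quiescent cells, had 10 of 32 lower. Its 5 stronger peaks lay 4726 to 7990 bp from the start site (chromosome 8, 72323683 to 72327180) and summed to 631 and 729 against 363 and 155. Rhob, a small GTPase, had 11 of 42 lower and 1 higher, and Ifitm10 had 8 of 56 lower and 4 higher. Of 29 peaks nearest Vmn1r2, 25 were lower; they lie at -86360 bp or farther upstream of that gene, at the proximal end of chromosome 4, and unplaced and random contigs moved with them: 20 of 75 contig peaks were lower and 0 higher. Egr1 had 4 of 27 lower and 0 higher. Most of these calls were lost without 1 of the WT libraries, as were most lower calls over all peaks. All 2134 lower calls kept their direction in both of those fits. Without WT replicate 1 or 2, in turn, limma called 2 and 0 Pik3r1 peaks lower (22 and 32 at an unadjusted p under 0.05), 1 and 0 for Klf2 (8 and 10), 0 in both fits for Rhob (9 and 8) and Ifitm10 (4 and 9), 2 in both for Vmn1r2 (18 and 25) and 1 in both for Egr1 (5 and 4).

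**Figure D4:**
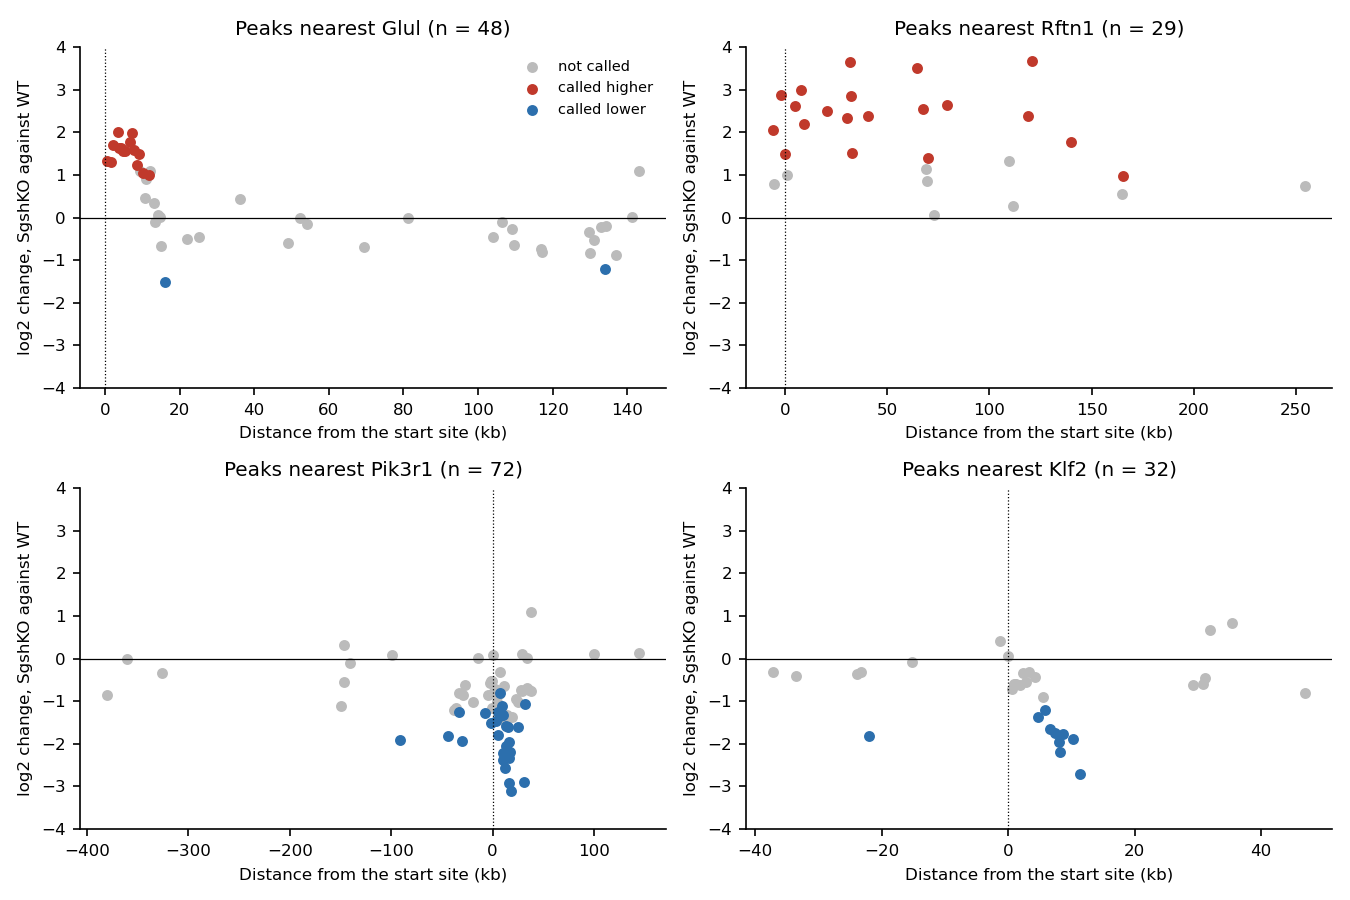
log2 change of every peak nearest Glul, Rftn1, Pik3r1 and Klf2 against its distance from the start site in kb; red, called higher; blue, called lower; grey, not called. The 4 genes were picked for the drawing from the 12 with most calls; the 15 higher peaks of Glul lie 562 to 11695 bp from the start site, whereas called peaks of Rftn1 reach 165184 bp from it.

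Gene lists were then described by the peaks nearest their genes, to be read against 5.05% higher, 2.33% lower and a median log2 change of -0.08 over all peaks. The DAM list (349 peaks of 37 genes) had 24 higher and 4 lower (6.88% and 1.15%) and a median of 0.32. Igf1 and Fabp5, above, belong to it. At start sites 4 of its 62 peaks were higher (6.45%, against 8.59% of all start-site peaks), at Apoe, Cd68 and Lgals3. Apoe, the main lipid carrier of the brain, had 16.4 and 15.2 against 64.9 and 52.0 normalized tags 37 bp from its start site (log2 change 1.81, adjusted p = 0.00265; 0.0878 and 0.203 without WT replicate 1 or 2). A further Apoe peak, at -534 bp, had 36.3 and 1.69 in WT against 50.2 and 48.3, and without WT replicate 2 its adjusted p was 0.912. Decreases included peaks nearest Itgax (19.0 and 13.6 against 6.06 and 0) and Ctsd (19.9 and 16.1 against 6.06 and 1.86), both below the median signal and not called without either WT library (adjusted p from 0.299 to 0.483). In fits without WT replicate 1 or 2, in turn, the list had 8 and 4 higher and 0 lower, and with in-peak scaling 27 higher and 13 lower.

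Among the 647 peaks nearest 30 homeostatic genes, 5 were higher and 56 lower (0.773% and 8.66%), with a median of -0.49. Besides Upk1b, start-site peaks were lower at Cx3cr1, the fractalkine receptor, and Gpr34. The Cx3cr1 peak at -602 bp had 97.7 and 69.5 against 47.6 and 30.6 normalized tags (log2 change -1.09, adjusted p = 0.0489), and 4 distal Cx3cr1 peaks were lower too; none of the 5 calls held without either WT library (adjusted p from 0.224 to 0.746). A peak 4817 bp from P2ry12, a purinergic receptor, had 51.0 and 51.7 against 22.5 and 15.8 (adjusted p = 0.022; 0.399 and 0.568 without WT replicate 1 or 2). Of the increases, the peak near the fructose transporter gene Slc2a5 had 470 and 33.0 in WT and 648 and 463 in SgshKO, and its adjusted p without WT replicate 2 was 0.935. Leaving out WT replicate 1, limma called 2 higher and 1 lower, with 13 higher and 44 lower at an unadjusted p under 0.05. Without WT replicate 2 it called 0 in either direction, with 1 higher and 60 lower at that unadjusted level. Of the 247 peaks nearest the 12 microglia marker genes, 25 were lower (10.1%) and 1 higher (0.405%). Of these genes, 10 are also on the homeostatic list and hold 23 of the 25 lower peaks. The sums of their start-site peaks overlapped, but as a share of the tags in peaks they did not (0.0575% and 0.0563% in WT against 0.0496% and 0.0484% in SgshKO). Oligodendrocyte-lineage, endothelial and mural, monocyte and neutrophil and lymphocyte markers also had lower shares in SgshKO without overlap. The shares of neuron, astrocyte and border macrophage markers overlapped. Without WT replicate 1 or 2, in turn, limma called 0 of the 247 peaks, with 21 and 32 lower at an unadjusted p under 0.05. The list of microglia lineage factors (803 peaks) had 15 higher and 42 lower (1.87% and 5.23%) and a median of -0.28. Without WT replicate 1 or 2, in turn, its median was -0.20 and -0.37 (all peaks: 0.02 and -0.18). The higher peaks lay nearest 10 genes and the lower ones nearest 15. At start sites 4 of its 78 peaks were higher (5.13%, against 8.59% of all start-site peaks), at Bhlhe40, Smad7 and Tgfb1. Another 2 were lower, at Egr1 and Klf4. Bhlhe40, a repressor linked to macrophage activation, had 87.3 and 114 against 302 and 388 at its start site (1.77 ± 0.28). That peak was still called with any 1 library left out.

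**Figure D5:**
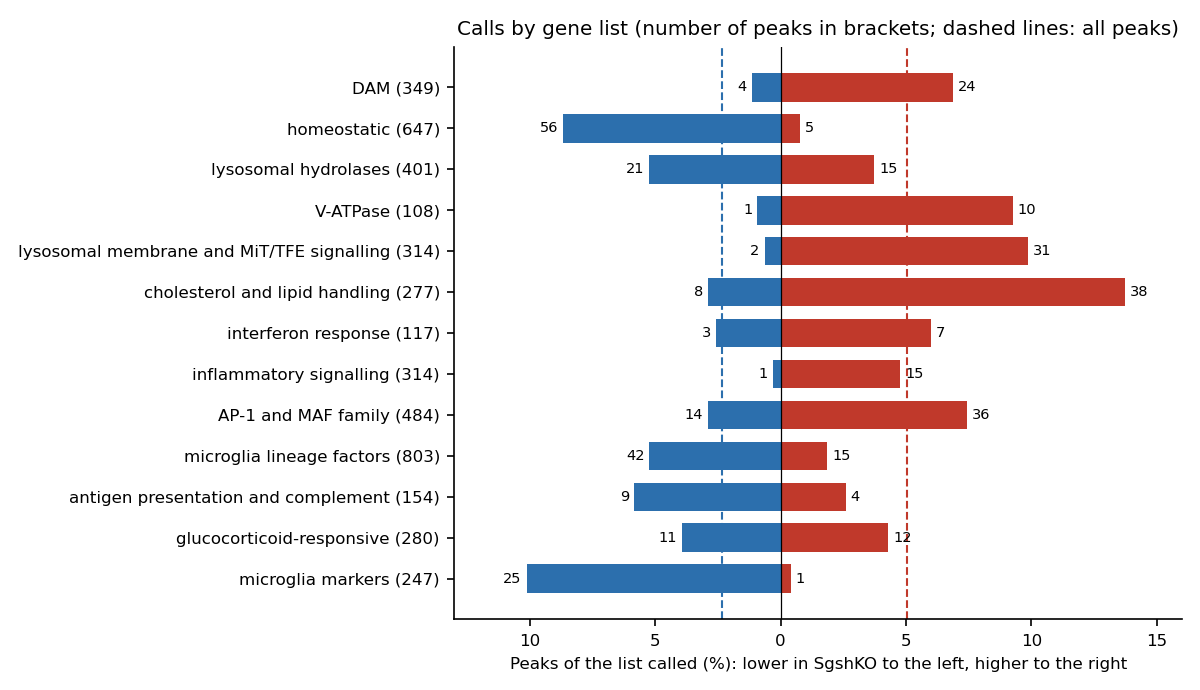
Percent of each list's peaks called lower (blue, to the left) and higher (red, to the right) in SgshKO, with the number called at the end of each bar; dashed lines mark the 2.33% lower and 5.05% higher of all peaks. The homeostatic, lineage, microglia marker, antigen presentation and hydrolase bars extend farther to the left than to the right. The other bars extend farther to the right, most of all those of the cholesterol, lysosomal membrane and V-ATPase lists.

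The V-ATPase, the proton pump that acidifies the lysosome, had 10 of 108 peaks higher and 1 lower (9.26% and 0.926%). Of its 37 start-site peaks, 7 were higher (18.9%, against 8.59% of all start-site peaks) and 0 lower. These 7 belonged to Atp6ap2, Atp6v0d1, Atp6v1b2, Atp6v1c1, Atp6v1f, Atp6v1g1 and Tcirg1. Over all genes, 13.2% of peaks within 250 bp of a start site and 21.8% of start-site peaks in the top signal group were higher. No list was compared with peaks of like signal or distance. At Atp6v1g1 (chromosome 4, 63544632 to 63544864) the values were 63.1 and 64.4 against 226 and 289 (log2 change 1.99 ± 0.29, adjusted p = 2.0e-05). Lysosomal membrane and MiT/TFE signalling genes had 31 of 314 peaks higher and 2 lower (9.87% and 0.637%, against 5.05% and 2.33% of all peaks). Besides Ulk1, start-site peaks were higher at Lamtor1, Map1lc3b, Mfsd8, Npc1, Tmem192, Cd68 and Wipi1. Wipi1, which acts in autophagosome formation, went from 226 and 169 to 466 and 589 (1.42 ± 0.26; adjusted p = 0.208 without WT replicate 2). The median log2 change was 0.15 for the V-ATPase and 0.13 for the membrane list. With in-peak scaling these were -0.05 and -0.08, against -0.28 for all peaks. Summed over start-site peaks, the V-ATPase list had 2705 and 2502 normalized tags in WT and 3907 and 4225 in SgshKO. As a share of the tags in peaks, it held 0.0485% and 0.0514% in WT and 0.0579% and 0.0787% in SgshKO. All start-site peaks together held 35.3% and 35.7% against 37.8% and 43.9%. Without WT replicate 1 or 2, in turn, the V-ATPase list had 1 and 2 higher calls and the membrane list 8 and 2. Lower calls rose in other settings: with in-peak scaling the V-ATPase had 10 higher and 6 lower and the membrane list 33 and 18, and without SgshKO replicate 1 these were 19 and 8, and 37 and 24.

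The hydrolases, the lysosome's degrading enzymes, had 15 of 401 peaks higher and 21 lower (3.74% and 5.24%), with a median of -0.05. Start-site peaks were higher at Dnase2a, Galns, Hgsnat and Neu1, among others, and lower at Nagpa. Hgsnat and Galns belong to the same group of glycosaminoglycan-degrading enzymes as Sgsh. The Hgsnat promoter (chromosome 8, 25976610 to 25976880) had 142 and 126 against 329 and 393 normalized tags (log2 change 1.42 ± 0.27, adjusted p = 0.000654, and 0.176 without WT replicate 2), and Galns 130 and 130 against 358 and 466 (1.64 ± 0.27). At both, the 2 SgshKO libraries lay more than 2-fold above both WT libraries. Summed over start-site peaks, the list had 9250 and 8148 normalized tags in WT and 12943 and 11787 in SgshKO, so the genotypes did not overlap. As a share of the tags in peaks, the list held 0.166% and 0.167% in WT and 0.192% and 0.22% in SgshKO. All start-site peaks together held 35.3% and 35.7% against 37.8% and 43.9%, likewise without overlap. The balance of the list's calls turned with several settings. It was 18 higher and 8 lower with the lowest 25% of peaks left out, 16 and 15 at a peak score of 1000 and 42 and 37 with the replicate block. It was 41 and 25 with median-of-ratios scaling, 47 and 32 by edgeR, 21 and 7 by DESeq2 and 28 and 19 with cyclic loess (a setting chosen after seeing the data). With in-peak scaling it was 17 higher and 49 lower. The list's median log2 change was 0.05 and -0.12 without WT replicate 1 or 2, in turn (all peaks: 0.02 and -0.18). Without SgshKO replicate 1 or 2, in turn, that median was -0.17 and 0.12 (all peaks: -0.27 and 0.15).

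The promoter of Sgsh itself did not pass the threshold. Its strongest start-site peak (chromosome 11, 119354901 to 119355111) had 229 and 192 normalized tags in WT and 364 and 253 in SgshKO (log2 change 0.53 ± 0.27, adjusted p = 0.244), and the peak over the printed sequence had 184 and 162 against 257 and 259.9 (adjusted p = 0.196). Accessibility there does not check the genotype label, since the labels do not say which part of the gene was altered. The start-site peaks of Mitf, Tfeb and Tfe3 were not called either. Mitf had 87.3 and 103 against 174 and 81.7, so the genotypes overlapped, while Tfeb (342 and 328 against 542 and 382) and Tfe3 (218 and 189 against 307 and 328) were higher in SgshKO without passing (0.44 ± 0.26 and 0.64 ± 0.26, adjusted p = 0.32 and 0.135). The Tfeb change was -0.09 with quantile normalization and -0.05 with cyclic loess, the latter chosen after seeing the data. Tfec had no start-site peak. Inside and near Tfeb 3 distal peaks were higher, the strongest in intron 1, 16430 bp from the start site (309 and 258 against 658 and 480; 0.99 ± 0.26, adjusted p = 0.0123). Without WT replicate 1 or 2, in turn, its adjusted p was 0.174 and 0.592, respectively. One distal Mitf peak passed (11.2 and 6.78 against 26.0 and 25.1, adjusted p = 0.0481), and it did not without either WT library (0.256 and 0.751).

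Cholesterol and lipid genes had 38 of 277 peaks higher (13.7%, against 5.05% of all peaks) and 8 lower. The higher peaks lay nearest 16 of the 30 genes, unevenly: 10 were among the 31 peaks of Abca1 and 5 among the 8 of Myo5a. Of the 8 lower peaks, 7 were among the 37 of Mylip. At start sites 13 of 59 peaks were higher and 1 lower, against 8.59% higher of all start-site peaks. The higher ones included peaks at Abca1, Apoc1, Apoe, Insig1, Myo5a, Nr1h2, Srebf1 and Srebf2. Apoc1 had 78.6 and 31.3 against 212 and 208 normalized tags at -979 bp (2.06 ± 0.34), which no longer passed when WT replicate 2 was left out (adjusted p = 0.22). Abca1, the cholesterol exporter, was singled out after its values were seen: 10 of its peaks were higher, 2 of them at the start site, where the strongest had 156 and 129 against 292 and 279 (log2 change 1.00, adjusted p = 0.018; 0.267 and 0.678 without WT replicate 1 or 2). Mylip, a ubiquitin ligase, had the list's clearest decreases, with 136 and 146 against 47.6 and 45.5 in intron 2 (-1.57 ± 0.31; adjusted p = 0.117 and 0.278 without WT replicate 1 or 2). The list's median log2 change was 0.10, and -0.10 with in-peak scaling, where 36 peaks were higher and 31 lower. In fits without WT replicate 1 or 2, in turn, the list had 11 and 2 higher and 0 lower.

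AP-1 and MAF family factors had 36 of 484 peaks higher and 14 lower, with a median of 0.06 that was -0.02 after quantile normalization and -0.14 with in-peak scaling. The Mafk promoter went from 149 and 152 to 440 and 535 normalized tags (1.68 ± 0.26, adjusted p = 4.75e-05), and an intronic Mafg peak from 123 and 127 to 468 and 354 (1.70 ± 0.27). Both encode small MAF proteins, which pair with factors of the stress response. A peak near Fos was lower at 22.5 and 31.3 against 4.33 and 4.64, which no longer passed without WT replicate 1 or 2 (adjusted p = 0.0928 and 0.447). Inflammatory signalling genes had 15 of 314 higher and 1 lower, the share higher (4.78%) being near that of all peaks. The clearest was a peak at -20231 bp from Ccl2, a chemokine (14.7 and 16.9 against 86.6 and 52.0; 2.02 ± 0.39; adjusted p = 0.0597 without WT replicate 1). With in-peak scaling the AP-1 and MAF list had 38 higher and 50 lower, and the inflammatory list 17 and 18. Interferon response genes had 7 of 117 higher and 3 lower (5.98% and 2.56%, against 5.05% and 2.33% of all peaks). Antigen presentation and complement genes had 4 of 154 higher and 9 lower (2.60% and 5.84%). Of these 9, 2 lay nearest C1qa, 5 nearest C1qb and 1 nearest C1qc. Glucocorticoid-responsive genes had 12 of 280 higher and 11 lower (4.29% and 3.93%). With in-peak scaling the interferon, antigen presentation and glucocorticoid-responsive lists had 9 and 14, 5 and 24, and 17 and 39, respectively. By DESeq2 the glucocorticoid-responsive list had 18 higher and 3 lower. Bst2, an interferon-induced membrane protein, had 76.0 and 51.7 against 216 and 174 at its promoter (1.61 ± 0.31; adjusted p = 0.295 without WT replicate 2). Arrdc2, an arrestin-domain gene, had the deepest signal of these, with 650 and 605 against 2110 and 1685 (1.59 ± 0.23), and was still called with any 1 library left out (adjusted p up to 0.0021). With WT replicate 1 or 2 left out, in turn, the higher calls were 5 and 2 for AP-1 and MAF factors, 2 and 1 for inflammatory, 4 and 2 for glucocorticoid-responsive, 1 and 0 for interferon and 2 and 0 for antigen presentation genes. Without WT replicate 2, the median log2 change was -0.08 for interferon and -0.18 for antigen presentation genes, against -0.18 for all peaks.

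The position of the calls relative to the other sorts was examined last. Of start-site peaks, 73.8% overlapped a NeuN+ or Olig2+ peak by at least 1 bp, and the share was 94.1% of the 2046 called higher and 54.5% of the 286 called lower. Of the stronger calls there it was 96.3% of 1557 higher and 75.6% of 78 lower. Among distal peaks 28.0% of all, 28.3% of the higher and 28.0% of the lower calls overlapped, and of the stronger calls 35.2% of 1171 higher and 41.8% of 438 lower. Higher calls at start sites thus lay mostly at promoters that were also open in the nuclei sorts, which were fixed and sorted by another protocol. Of these 2046 calls, 1714 lay in the top of the 5 signal groups, while 133 of the 286 lower calls lay in the lowest. Overlap was not compared among peaks of like signal or distance.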

How the data were processed

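The deposited tables hold, for each merged peak, a signal in normalized tags that the authors scaled to a library total of 10000000, per the file headers. The authors' peak score in the deposited table was used only as a filter. Bowtie2, HOMER and the build mm10 are named in the submitters' processing notes. For versions, read shifting and duplicate handling, the sources used here give nothing. Tags multiplied back by the header totals gave whole reads (within 0.01), which allowed edgeR 4.0.16 and DESeq2 1.42.0 as alternatives.

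SgshKO was compared with WT by limma 3.58.1 (R 4.3.3, trended prior variance) on log2(tags + 1) of all 91770 peaks, with Benjamini-Hochberg adjustment and a threshold of 0.05. Fold changes on this scale understate those of weak peaks. Peaks bear the name of the gene with the nearest start site, which need not be the gene they act on. The script was tested on simulated data. Members and gene lists were chosen with earlier results of these data known, and a list's counts are a description. Among the stronger calls, 1 peak per protein-coding gene was named, by the 8 largest changes per direction at start sites and at distal peaks. The 6 genes with most such calls per direction, the 2 smallest p-values per direction in each list, and Sgsh, Mitf, Tfeb, Tfe3 and Tfec were named too; Gpr34, Hgsnat, Abca1, Cx3cr1, P2ry12 and the Apoe, Tfeb and Runx1 peaks beyond the rule were added after their values were seen. The counting interval covers counting error only. Results for some genes that met these rules are not reported here.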

Additional observations from a re-analysis of the deposited data

How the results depend on the processing

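The counts of calls moved with scaling and tool far more than their direction at start sites. Calls higher over all peaks were 8507 with median-of-ratios scaling and 9382 by edgeR. Lower calls were 1042 without the lowest 25% of peaks, 9419 with in-peak scaling, 3441 with median of ratios, 3996 with quantile normalization, 4820 by edgeR and 457 by DESeq2. The share of calls that were higher was 79.6% without the lowest 25%, 35.1% with in-peak scaling and 90.7% by DESeq2. At start sites, higher calls were 3552 with median of ratios and 3833 by edgeR. Lower calls there were 144, 1724, 500, 709, 725 and 50 in the order of settings above, and 502 with cyclic loess, a setting chosen after seeing the data. At distal peaks, higher calls were 4955 with median of ratios, 4425 with quantile normalization, 5549 by edgeR and 4542 with cyclic loess. Distal lower calls were 898, 7695, 2941, 3287, 4095 and 407 in the same order of settings, and 1230 at a peak score of 1000. Within 250 bp of a start site, 111 peaks were lower, and the start-site median exceeded the distal one by 0.35.

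The replicate numbers were not shown to pair the libraries: across peaks the replicate differences of WT and SgshKO had a correlation of 0.042. With the replicate number as a block, 8883 peaks were higher and 5606 lower. At start sites the block gave 3707 and 916, and at distal peaks 5176 and 4690.

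Leaving out 1 library at a time gave 541 to 11808 higher and 16 to 12943 lower calls, with 31.3% to 97.2% of calls higher. Start-site calls ran from 249 to 3532 higher and from 2 to 1919 lower, distal calls from 292 to 8276 and from 13 to 11024. The start-site minus distal median ran from 0.02 to 0.28. List medians minus that of all peaks ran from 0.25 to 0.39 for DAM, -0.44 to -0.30 for homeostatic, -0.03 to 0.10 for hydrolase, 0.11 to 0.36 for V-ATPase, 0.24 to 0.26 for lysosomal membrane and 0.17 to 0.21 for cholesterol genes. They ran from 0.0695 to 0.189 for interferon, 0.0478 to 0.178 for inflammatory, 0.09 to 0.16 for AP-1 and MAF, -0.25 to -0.13 for lineage, -0.12 to 0.00 for antigen presentation and -0.00707 to 0.0462 for glucocorticoid-responsive genes. The Sgsh promoter change ran from 0.27 to 0.79. Calls of named peaks were lost at 52 of 103 without WT replicate 1 and at 66 without WT replicate 2.

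The same list medians also moved with other settings. For DAM they were 0.34 with a pseudocount of 5, 0.33 without the lowest 25%, 0.33 at a peak score of 1000, 0.31 with quantile normalization and 0.30 with cyclic loess. For homeostatic genes they were -0.34 with a pseudocount of 5 and -0.32 without the lowest 25%. For the V-ATPase the value was 0.32 at a peak score of 1000, for cholesterol genes 0.11 with cyclic loess and for inflammatory genes 0.10 with quantile normalization. For AP-1 and MAF factors it was 0.0468 with quantile normalization and 0.0621 with cyclic loess. For glucocorticoid-responsive genes it was 0.0733 at a peak score of 1000, 0.0164 without sex chromosomes, -0.0357 with quantile normalization and -0.0432 with cyclic loess. The Sgsh start-site peak passed the threshold with median-of-ratios scaling (0.59) and by edgeR (0.58). Uncalled promoter peaks turned sign: Tfeb with quantile normalization (-0.0879) and cyclic loess (-0.0536), and Mitf without SgshKO replicate 1 (-0.21), where without SgshKO replicate 2 it was 0.87. The causes were not tested. In the lowest of 5 signal groups the median peak had 11.1 normalized tags, and 703 of 18358 peaks were higher and 1047 lower (3.83% and 5.70%).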

Other observations

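Peaks on contigs and on chromosome Y, left out of the named peaks, were lower in SgshKO or not called. Of 75 peaks on unplaced and random contigs, 20 were lower, with sums of 3911 and 2953 normalized tags in WT and 1890 and 2840 in SgshKO. Of 6 peaks on chromosome Y, 3 were lower, with sums of 167 and 129 against 76.2 and 72.4. All 6 start at position 90740430 or beyond, and 0 start-site peaks were nearest Xist. The part of sex in these values was not tested. Of 38 peaks without an annotation class, 18 were lower.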
